A study of Mus musculus with 57 samples.

Results

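The comparison described here is that of H3K27me3 after 72 h of CHIR99021 with H3K27me3 at 0 h, in mouse epiblast stem cells (EpiSCs) that lack Wnt3. It rests on 3 of the 57 samples of the series: 2 replicate ChIP-seq libraries at 0 h and 1 library at 72 h. The members are the regions listed as enriched in these libraries, in coordinates of the mm9 build of the mouse genome. Regions that overlapped a region of either input library (chromatin sequenced without an antibody) were removed, which left 13128 of the 13718 listed regions: 4106 in 0 h replicate 1, 6064 in 0 h replicate 2 and 2958 at 72 h. The 32 libraries of the series that have a list of regions hold 591931 regions in all. A 0 h region was called kept when it shared at least 1 bp with a 72 h region, and lost when it did not. A 72 h region was called new when it overlapped no region of either 0 h replicate. Lost and new mean absence from a list, not a measured absence of the mark.

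EpiSCs are cell lines that resemble the epiblast of the embryo shortly before gastrulation, here derived from explants of embryos taken before the primitive streak forms. All 3 libraries came from cells named Wnt3KO EpiSCs, in which the gene of the ligand Wnt3 is knocked out, and all were made with the same Millipore antibody. The 0 h cells were grown with IWP2 (2 µM), an inhibitor that blocks the secretion of Wnt proteins, together with Fgf-basic and Activin A. For the 72 h cells IWP2 was withdrawn and CHIR99021 (3 µM, named Chiron in the sample titles) was added, an inhibitor of the kinase GSK3 that switches on Wnt signalling downstream of the receptor. The withdrawal of IWP2 and the addition of CHIR99021 went together, so their parts cannot be told apart. Replicates are numbered in the labels, which do not say whether they were separate cultures, and they do not say whether the knockout cells are a single clone. The comparison asks what becomes of the H3K27me3 landscape when Wnt signalling is switched on in cells kept without it.

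H3K27me3 is the trimethylation of lysine 27 of histone H3, set by Polycomb repressive complex 2 and found over the promoters of developmental genes that are held silent. Ring1b is the catalytic subunit of Polycomb repressive complex 1, which can bind where H3K27me3 lies and ubiquitinates histone H2A. H3K4me3 marks CpG-rich promoters, and promoters of pluripotent cells that carry it together with H3K27me3 are called bivalent. H3K27ac is placed on the same lysine as H3K27me3 and marks active promoters and enhancers, so that the same lysine cannot hold both.

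The H3K27me3 lists differed in more than their number of regions. The regions of 0 h replicate 1 covered 2.72 Mb with a median length of 495.5 bp, those of replicate 2 covered 4.56 Mb with a median of 524 bp, and those of 72 h covered 1.38 Mb with a median of 394 bp. Of these 3 lists, that of 72 h had the fewest and the shortest regions, and its longest region had 1976 bp, against 6077 bp and 7895 bp at 0 h. The other H3K27me3 lists of stimulated cells, counted here without input regions, were as short. They had 2478 regions (median 393 bp) after 6 h of CHIR99021, 2967 (388 bp) after 12 h and 796 (389 bp) after 5 h of Wnt3a protein. As deposited, the form used for overlaps below, they held 2572, 3056 and 1012 regions, and 21.3% of the Wnt3a list overlapped an input region. The shortest length that occurs, 300 bp, was that of 12.3% of the 72 h regions and of 6.31% and 7.39% of the 0 h regions. Names inside the files show that replicate 2 and 72 h were processed in the same folder and replicate 1 in another one. Sequencing depth is unknown, because the lists hold no read counts, and depth and stimulation cannot be told apart in a list that is shorter. No test of 72 h against 0 h was possible with 1 library at 72 h. Shares are therefore given with 95% Wilson intervals, which cover counting error only, and are set beside the share of the same regions that the other 0 h replicate lists.

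Most 0 h regions were not listed at 72 h. Of replicate 1, 1414 of 4106 regions were kept, a share of 34.4% (interval 33.0 to 35.9%), and 2692 were lost (65.6%). Of replicate 2, 1717 of 6064 were kept, 28.3% (27.2 to 29.5%), and 4347 were lost (71.7%). The mean kept share was 31.4% ± 4.33 (SD, n = 2 replicates), an SD that covers the 0 h libraries only, since both are set against the same 72 h library.

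The 0 h replicates listed each other's regions more often than 72 h did. Replicate 2 lacked 710 regions of replicate 1 (17.3%), and replicate 1 lacked 2977 regions of replicate 2 (49.1%). The share found in the other replicate exceeded the share kept at 72 h by 48.3 percentage points for replicate 1 and by 22.6 points for replicate 2, a mean of 35.4 ± 18.2 points (SD, n = 2). The replicate 1 list is the shorter of the pair. With all 3 lists cut to the 2958 regions of highest −log10 q, the kept share was 41.6% and the excess 26.98 points. Regions that both replicates list were kept in 39.5% (replicate 1) and 41.3% (replicate 2), with overlapping intervals. Regions that only a single replicate lists were kept in 10.0% and 14.9%.

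Fewer regions were called new than lost, which the shorter 72 h list and the definitions favour. A new region had to be absent from both 0 h lists, a lost one from the 72 h list alone. At 72 h, 851 of 2958 regions were new (28.8%, 27.2 to 30.4%). Replicate 2 listed 68.2% of the 72 h regions and replicate 1 listed 53.3%, so with replicate 2 left out the new share would be 46.7%. A count of new regions thus depends on which 0 h lists are used. Replicate 2 has the longer list and also shares the processing folder of 72 h, and these cannot be told apart here.

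Kept regions were covered only in part at 72 h. The 72 h regions covered 24.0% of the bases of replicate 1 and 19.05% of those of replicate 2. Between the replicates, the shared bases made up 78.7% of replicate 1 and 47.0% of replicate 2. Among regions listed in all 3 libraries, the median region of replicate 1 had 54.8% of its bases covered at 72 h and 100% in replicate 2. The median such region of replicate 2 had 44.4% of its bases covered at 72 h and 73.9% in replicate 1. Regions that stayed on the list were therefore covered over a smaller part of their length than in the other replicate.

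The kept share rose with the length of the region at 0 h. A longer region has more bases that can meet the 1 bp rule, which favours this order. In the shortest quintile of replicate 1 (300 to 342 bp) 17.9% were kept, and the following quintiles had 19.5%, 27.9%, 42.6% and, for regions of 887 to 6077 bp, 64.3%. In replicate 2 the shares were 10.2%, 14.0%, 21.4%, 33.4% and 62.6%, the last for regions of 1039 to 7895 bp. The longest and the shortest quintile differed by 49.4 ± 4.22 points (SD, n = 2). The other replicate also listed longer regions more often, from 62.8% to 99.5% for replicate 1 and from 22.0% to 92.3% for replicate 2. In the longest quintile, where the replicates missed few of each other's regions, 293 of 821 regions of replicate 1 and 453 of 1212 of replicate 2 were still lost at 72 h.

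Strength ordered the regions in the same way. By the deposited −log10 q value (the significance of a region after correction for many tests, from the authors' peak caller), the kept share of replicate 1 went from 19.3% in the lowest quintile through 22.7%, 25.7% and 38.9% to 65.7% in the highest. Replicate 2 had 12.0%, 14.0%, 20.9%, 35.2% and 59.5%. The highest and the lowest quintile differed by 46.9 ± 0.867 points (SD, n = 2). Kept regions had a median length of 727.5 bp against 430.5 bp for lost ones in replicate 1, and of 930 bp against 448 bp in replicate 2. Length and −log10 q go together in these lists, so the pair of orders is not 2 separate results. Under the stricter rule that the summit of a region lie inside a region of the other list, the differences between the end quintiles were 28.0 points for length and 31.4 points for −log10 q.

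**Figure D1:**
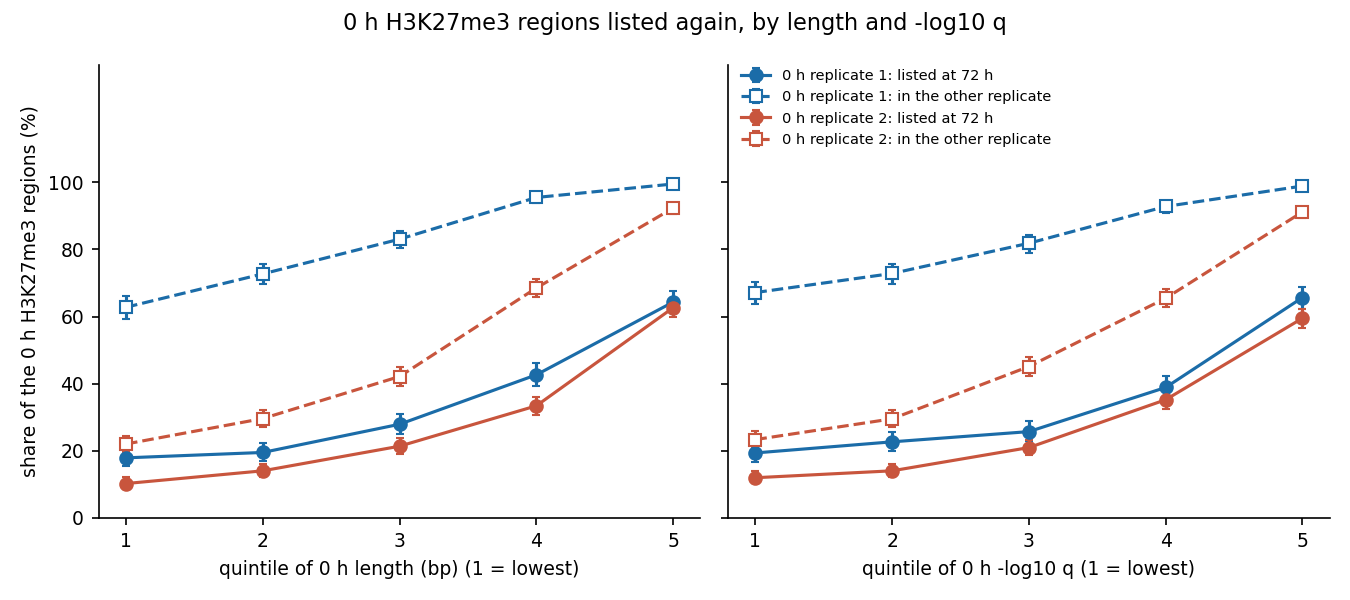
Share of 0 h H3K27me3 regions listed at 72 h (filled circles) and in the other 0 h replicate (open squares), in percent, by quintile of 0 h length (left) and of −log10 q (right), with 95% Wilson intervals. The 72 h shares rise to between 59.5% and 65.7% in the highest quintiles and lie below the share in the other replicate in each of the 20 pairs of points.

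Clustering separated the 72 h list from the replicate comparison. When 0 h regions with gaps of up to 5 kb were joined into clusters, replicate 1 held 988 single regions and 190 clusters of 5 or more regions, and replicate 2 held 1204 and 269. The other replicate listed 65.1% of the single regions of replicate 1 and 92.8% of the regions in its clusters of 5 or more, and for replicate 2 these shares were 33.3% and 63.7%. At 72 h no such rise was seen: 30.1% of single regions and 32.8% of regions in the large clusters were kept for replicate 1, and 29.0% and 26.6% for replicate 2.

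At least 1 region was listed at 72 h in 83.2% of the clusters of 5 or more regions of replicate 1 and in 75.5% of those of replicate 2, against 100% and 97.4% in the other replicate. A cluster of many regions is likely to hold at least 1 that is listed, so these shares are a description only. Many lost regions lay near a region that was still listed: 47.2% of the lost regions of replicate 1 and 40.0% of those of replicate 2 had a 72 h region within 5 kb. Regions that the other replicate lacked lay near its regions more often, with 64.9% and 55.2% within 5 kb. Counting a region as kept when a 72 h region lay within 1 kb raised the mean kept share to 45.9%.

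**Figure D2:**
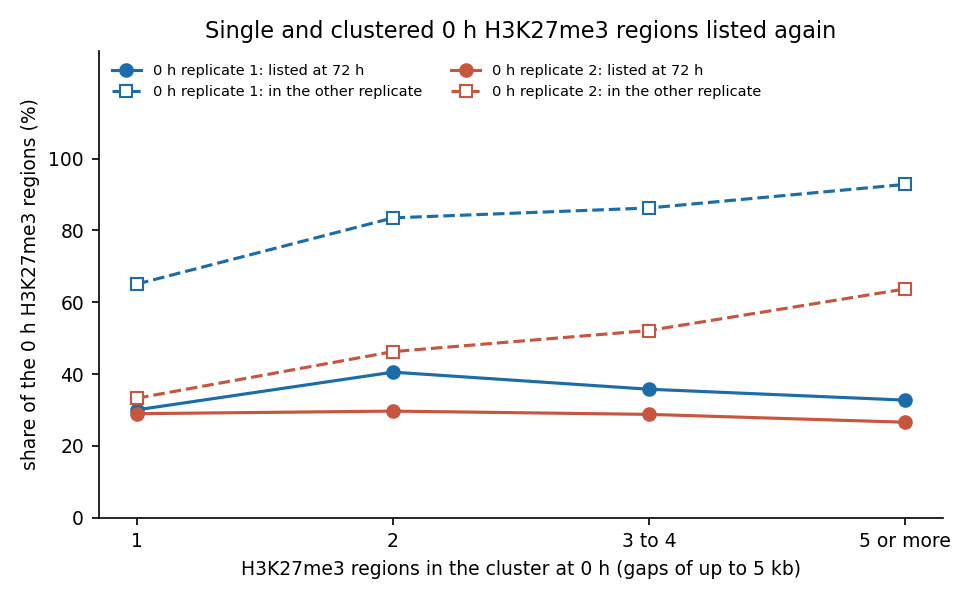
Share of 0 h H3K27me3 regions listed at 72 h (filled circles) and in the other 0 h replicate (open squares), in percent, by the number of regions in their cluster at 0 h. The share in the other replicate rises with cluster size to 92.8% and 63.7%, while the 72 h share lies between 26.6% and 40.5% at every size.

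H3K4me3 at 0 h went with a higher kept share. Of the replicate 1 regions, 1448 overlapped an H3K4me3 region at 0 h, and 47.0% of these were kept against 27.6% of the regions without it. Of the replicate 2 regions, 2344 overlapped H3K4me3, and 41.4% were kept against 20.1%. The difference was 20.4 ± 1.36 points (SD, n = 2), and the same difference in the share found in the other replicate was 15.1 ± 0.778 points. Within quintiles of −log10 q the mean difference at 72 h was 12.4 points, and within quintiles of length 10.3 points. In the share found in the other replicate, the difference within quintiles of −log10 q was 12.2 points for replicate 1 and 0.187 points for replicate 2, so at 72 h it exceeded that between the 0 h libraries in replicate 2 and was near it in replicate 1 (13.0 points). The share was higher with H3K4me3 in 20 of 20 quintile comparisons, by 4.63 to 19.9 points. These comparisons are not independent, since the replicates share many regions and both are set against the same 72 h and H3K4me3 libraries. The difference was 4.54 points when the summit had to lie inside the other list's region, 12.5 points when at least 50% of the shorter region had to be shared, and 37.3 points when regions within 1 kb were merged first.

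The kept share was higher with Ring1b over all regions, but not on average among regions of similar strength or length. Of the replicate 1 regions, 1241 overlapped a Ring1b region of either 0 h replicate, and 40.0% were kept against 32.0% of the others. Of the replicate 2 regions, 1426 overlapped Ring1b, and 36.8% were kept against 25.7%. This gives a difference of 9.52 ± 2.26 points (SD, n = 2), but regions with Ring1b were longer and stronger, with a median of 673 bp against 450 bp in replicate 1 and 853.5 bp against 468 bp in replicate 2. Within quintiles of −log10 q the mean difference was −2.69 ± 1.31 points and within quintiles of length −3.07 ± 1.27 points. The share was lower with Ring1b in 17 of 20 quintile comparisons, which range from −7.13 to 4.82 points and share their regions and libraries as above. The 3 exceptions lay in end quintiles: the highest of −log10 q in replicate 1 (4.82 points) and replicate 2 (3.76 points), and the longest of replicate 1 (2.45 points). The highest −log10 q quintiles held 416 and 581 of the regions with Ring1b, more than any other, while the means count each quintile alike. Regions with Ring1b were listed more often in the other 0 h replicate, by 18.8 points for replicate 1 and 31.8 points for replicate 2 over all regions. That difference kept its sign within quintiles, with means of 15.6 ± 0.510 points for −log10 q and 14.6 ± 0.0755 points for length (SD, n = 2), where the 72 h difference was below 0. The unadjusted difference moved widely with the overlap rule, from 1.13 points when the summit had to lie inside the other list's region to 23.1 points when regions within 1 kb were merged first. It was 5.47 points with lists of equal length, 4.63 points over the regions of both replicates and 14.5 points with the input regions kept in.

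Of the 4 combinations of the marks, regions with neither had the lowest kept share in both replicates. With neither mark, 25.01% of 1979 regions of replicate 1 and 17.7% of 3000 regions of replicate 2 were kept. With Ring1b only, 35.1% of 679 and 29.7% of 720 were kept. With H3K4me3 only, 47.7% of 886 and 40.3% of 1638 were kept, and with both marks 45.9% of 562 and 44.1% of 706. Among regions with H3K4me3, Ring1b thus made a difference of −1.84 points in replicate 1 and 3.76 points in replicate 2. Within quintiles of −log10 q that difference was −9.76 and −9.73 points. Among regions without H3K4me3 it was 1.49 and 0.423 points within quintiles of −log10 q, and 0.652 and −0.0241 points within quintiles of length. Over the regions that both replicates list, it was −1.79 and −1.34 points without H3K4me3 within quintiles of −log10 q. With H3K4me3 it was −10.0 and −11.1 points there. The difference was thus further below 0 among regions with H3K4me3, but not below 0 in these alone. Bivalent regions that also carried Ring1b at 0 h were the combination with the highest median −log10 q in each replicate. In the mean over quintiles of −log10 q, each quintile counted alike, they were kept less often than H3K4me3 regions without Ring1b. Over all such regions the sign differed between the replicates, and single quintiles were not examined for this subset.

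**Figure D3:**
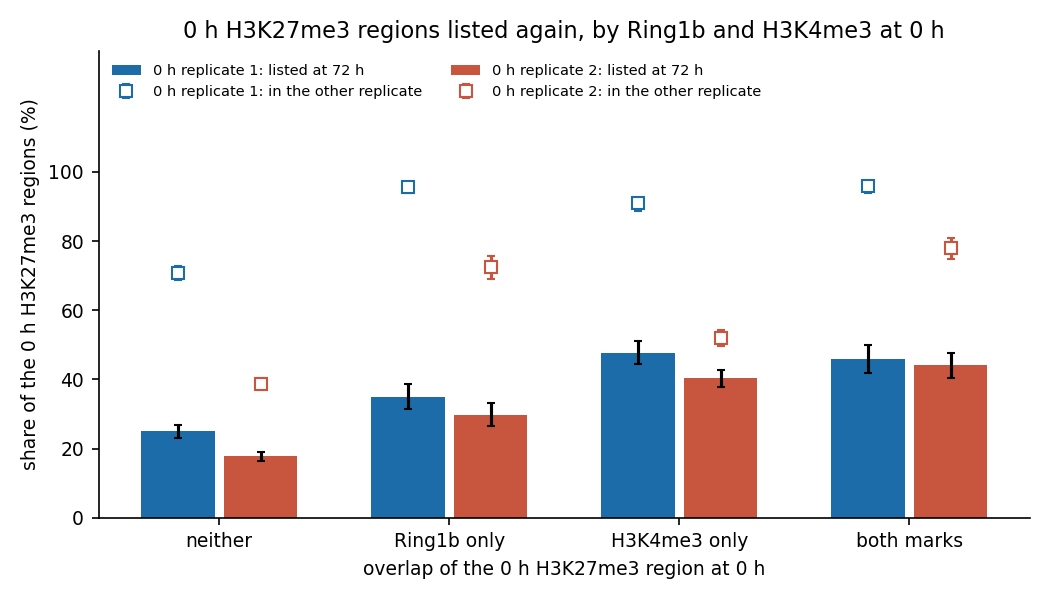
Share of 0 h H3K27me3 regions listed at 72 h (bars, 95% Wilson intervals) and in the other 0 h replicate (open squares), in percent, by overlap with Ring1b and H3K4me3 at 0 h. Bars are lowest with neither mark (25.01% and 17.7%), and those with Ring1b only (35.1% and 29.7%) lie below those with H3K4me3 only (47.7% and 40.3%). The squares are also lowest with neither mark, but those with Ring1b only lie above those with H3K4me3 only.

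**Figure D4:**
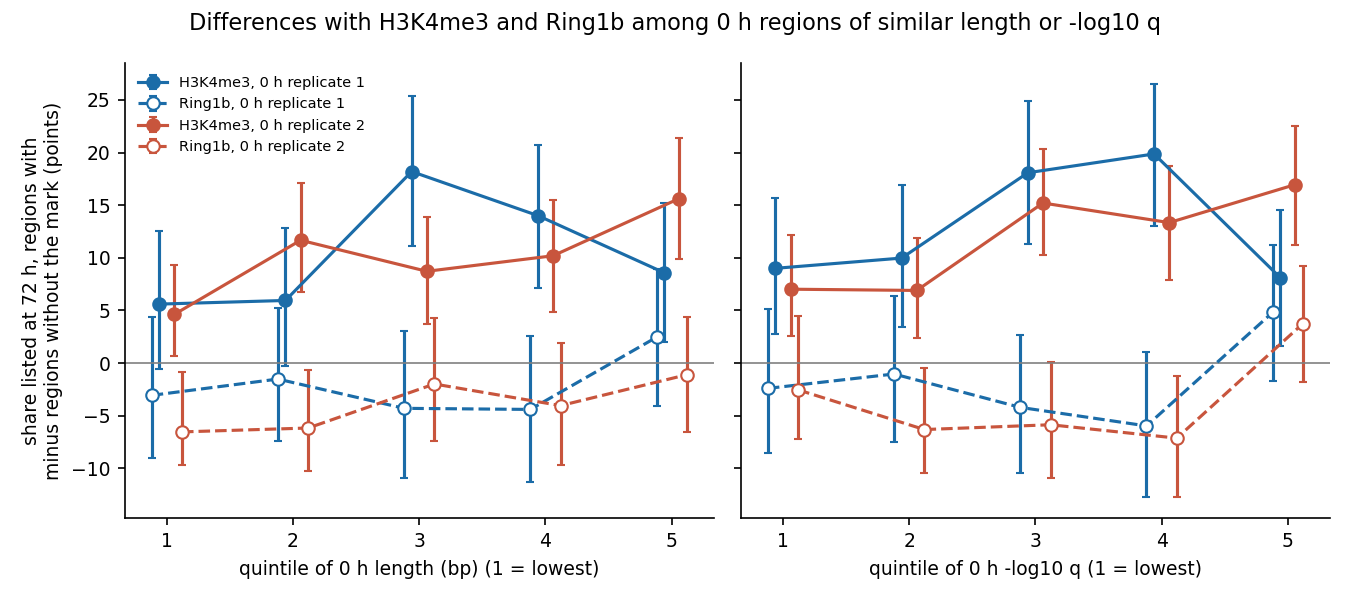
Share kept at 72 h among 0 h H3K27me3 regions with a mark minus the share among those without it, in percentage points, within quintiles of length (left) and −log10 q (right); filled circles are H3K4me3, open circles Ring1b, and bars combine the 95% Wilson intervals of both shares. Differences with H3K4me3 lie above 0 in 20 of 20 points and those with Ring1b below 0 in 17 of 20, the exceptions being in the highest quintiles.

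A minority of the lost regions carried H3K4me3, and their share with it was similar at both times: 28.5% at 0 h and 30.2% at 72 h in replicate 1, and 31.6% and 31.9% in replicate 2. Of the lost regions with H3K4me3 at 0 h, 671 of 767 (87.5%) in replicate 1 and 1221 of 1373 (88.9%) in replicate 2 overlapped H3K4me3 at 72 h. For kept regions the shares were lower, 81.2% of 681 and 82.9% of 971. Of all H3K4me3 regions of the 0 h list, 95.2% were listed again at 72 h. That share counts H3K4me3 regions and the others count H3K27me3 regions, so they are not directly comparable. H3K4me3 that was present at 72 h and not at 0 h lay on 143 lost regions of replicate 1 (5.31%) and 165 of replicate 2 (3.80%), against 44 (3.11%) and 48 (2.80%) of the kept ones.

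Ring1b at 72 h was rare on kept and lost regions alike. Over all regions of replicate 1 it lay on 4.95% of the kept (3.94 to 6.21%) and 3.27% of the lost (2.66 to 4.01%), and over those of replicate 2 on 4.78% (3.86 to 5.89%) and 2.94% (2.48 to 3.49%). Ring1b at 0 h was also more frequent on kept regions, with 35.1% against 27.7% in replicate 1 and 30.6% against 20.7% in replicate 2. Where Ring1b was present at 0 h, it was listed at 72 h on 14.1% of the kept and 11.7% of the lost regions of replicate 1, and on 15.2% and 14.0% for replicate 2, with overlapping intervals. The 72 h Ring1b list is itself short, with 604 regions, of which 24.8% overlapped an input region. Of all Ring1b regions of 0 h outside input regions, 15.3% (replicate 1) and 16.6% (replicate 2) were listed at 72 h. These shares count Ring1b regions and the others count H3K27me3 regions, so they are not directly comparable.

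H3K27ac was rare on these regions and moved in opposite ways on lost and new ones. Lost regions are defined by absence from the 72 h H3K27me3 list and new ones by absence from the 0 h lists. The same lysine cannot hold both marks, so these directions are not independent of how the classes were formed. Of the lost regions, 17 overlapped H3K27ac at 0 h and 41 at 72 h in replicate 1 (0.632% and 1.52%), and 48 and 91 in replicate 2 (1.104% and 2.093%). Kept regions had 9 at both times in replicate 1, and 20 at 0 h and 16 at 72 h in replicate 2. Of the 851 new regions, 29 overlapped H3K27ac at 0 h (3.41%, 2.38 to 4.85%) and 4 at 72 h (0.470%, 0.183 to 1.20%). The 72 h regions listed at 0 h had 10 of 2107 at each time. With 1 H3K27ac library per time these differences have no replicate check, and they concern few regions. When the summit had to lie inside the other list's region, the difference between 72 h and 0 h was 0.496 points on lost regions (0.940 as given above) and −1.48 points on new ones (−2.94 as given above).

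New regions differed from the rest of the 72 h list in Ring1b. Of the new regions, 17 of 851 overlapped Ring1b of either 0 h replicate (2.00%, 1.25 to 3.18%), against 573 of 2107 of the 72 h regions listed at 0 h (27.2%, 25.3 to 29.1%). New regions were shorter (median 357 bp against 413 bp) and weaker (median −log10 q of 5.47 against 5.96). The gap in Ring1b was nevertheless present in each quintile: 0.529% to 3.92% of new regions and 24.4% to 30.5% of the others overlapped it across quintiles of −log10 q, and 0.704% to 3.86% and 22.3% to 32.9% across quintiles of length. Regions that a single 0 h replicate lists, a class in which weak regions also gather, overlapped Ring1b in 7.32% (replicate 1) and 11.9% (replicate 2). Regions that the other replicate lists too did so in 35.0% and 34.8%. Ring1b at 0 h thus goes with being listed at 0 h, and new regions are defined by absence from the 0 h lists. Quintiles of 72 h values do not remove that link. At 72 h, Ring1b was listed on 7 new regions (0.823%) and on 65 of the others (3.08%), a difference of −2.26 points that was −6.99 points with the input regions kept in.

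In H3K4me3 and open chromatin the new regions were much closer to the others. They overlapped H3K4me3 in 34.7% at 0 h and 29.4% at 72 h, and the other 72 h regions in 41.1% and 35.6%. The difference at 72 h, −6.22 points, was −0.254 points with replicate 2 left out of the 0 h lists, −0.976 points when the summit had to lie inside the other list's region and −12.7 points when regions within 1 kb were merged first. Open chromatin, measured by ATAC-seq in wild-type EpiSCs and not in the Wnt3 knockout, overlapped 33.5% of new and 34.1% of other regions at 0 h, with overlapping intervals. The new share fell from 39.9% in the shortest quintile of 72 h length to 15.7% in the longest, and from 36.3% to 17.3% with −log10 q.

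**Figure D5:**
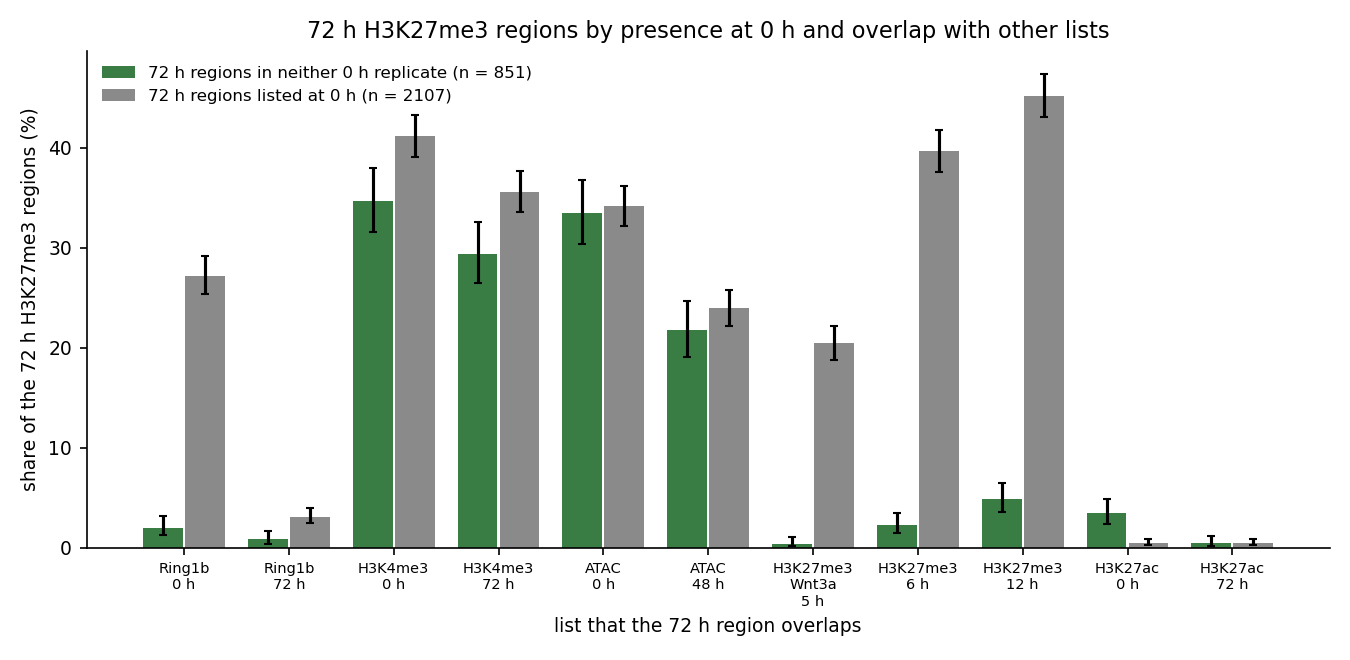
Share of the 72 h H3K27me3 regions that overlap each other list, in percent with 95% Wilson intervals, for regions in neither 0 h replicate (green) and regions listed at 0 h (grey). The green bars are far below the grey ones for Ring1b at 0 h (2.00% and 27.2%) and for earlier H3K27me3 lists, and near them for ATAC-seq at 0 h (33.5% and 34.1%).

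Earlier H3K27me3 lists held few of the new regions. Of the 851, 3 (0.353%) were listed after 5 h of Wnt3a protein, 19 (2.23%) after 6 h of CHIR99021 and 41 (4.82%) after 12 h. The 72 h regions listed at 0 h were found in these lists in 20.4%, 39.6% and 45.2%. Each of these times has 1 library. The 6 h and 12 h lists came from a processing folder of their own, and the list after Wnt3a from that of replicate 1.

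Regions missing at 6 h and 12 h were more often missing at 72 h. Among the 3087 regions of replicate 2 that replicate 1 also listed, 951 were listed at both 6 h and 12 h, and 61.6% of these were kept at 72 h. Of the 860 listed at only a single one of these times 40.2% were kept, and of the 1276 listed at neither 26.8%. In all, 586 regions (18.98%) were listed at each of the 3 times and 934 (30.3%) at none, while 342 (11.1%) were missing at 6 h and 12 h and listed at 72 h. The part of the regions' strength in this order was not tested.

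The strongest kept region by −log10 q in replicate 2 was chr1:172999540-173000223. Its −log10 q was 39.98 in replicate 2, 38.00 in replicate 1 (over chr1:172999529-173000229) and 10.93 at 72 h (over chr1:172999552-173000175), by the authors' values, which rank regions within a list and are not a measure across lists. It overlapped none of the Ring1b, H3K4me3, H3K27ac and ATAC-seq lists examined. The next, chr5:24030596-24032265 and chr6:29476791-29478837, had 1670 bp and 2047 bp in replicate 2 and overlapped 72 h regions of 749 bp and 684 bp. Both overlapped H3K4me3 at 0 h and 72 h, and Ring1b at 0 h but not at 72 h.

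The longest kept regions were covered over fewer bases at 72 h. The region chr11:85647241-85655135, with 7895 bp in replicate 2, was covered by 4 regions over 7118 bp in replicate 1 and by 4 regions over 2665 bp at 72 h. The region chr12:9581497-9587749, with 6253 bp, was covered over 5596 bp in replicate 1 and over 2527 bp at 72 h. Both overlapped Ring1b at 0 h and at 72 h.

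Among the strongest lost regions, chr8:97398579-97399832 had a −log10 q of 35.49 in replicate 2 and 12.41 in replicate 1. It was listed after 6 h and 12 h, with 339 bp and 988 bp, and after Wnt3a, with 330 bp. The nearest 72 h region lay 102875 bp away. The chr8 region had H3K4me3 at both times and no Ring1b. The region chr9:24577918-24579165 also had H3K4me3 at both times, and Ring1b at 0 h, and was listed at 6 h and 12 h but not after Wnt3a. The region chr4:47003116-47004207 was listed in none of these and had H3K4me3 at 0 h and not at 72 h. Its nearest 72 h region was 725 bp away, and that of the chr9 region 1676 bp.

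The longest lost regions had Ring1b at 0 h in both replicates and not at 72 h. The region chr2:118526965-118531367 had 4403 bp in replicate 2 and 4 regions over 3739 bp in replicate 1. It held 1 region of 1009 bp after Wnt3a, none at 6 h and 1 region of 680 bp at 12 h. The region chr5:29799309-29803473, with 4165 bp, was covered over 3391 bp in replicate 1. It was covered over 1161 bp after Wnt3a, over 2044 bp at 6 h and over 1138 bp at 12 h. Only the former overlapped H3K4me3, at 0 h and 72 h. The nearest 72 h H3K27me3 regions lay 1758 bp from the chr2 region and 352 bp from the chr5 region.

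Of the strongest new regions, some lay far from any 0 h region. Both chr2:30532035-30532569 (−log10 q of 16.37) and chr11:20441356-20441786 (13.65) were in no other H3K27me3 list, and their nearest 0 h regions lay 124522 bp and 1450950 bp away. The region chr5:67484958-67485530 (13.14) lay 614 bp from a 0 h region. Of the 3, only the chr2 region overlapped H3K4me3, at both times. The longest new regions, chr17:31037785-31039294 (1510 bp) and chr18:38368930-38370179 (1250 bp), overlapped H3K4me3 and ATAC-seq regions at both of their times and no Ring1b, and the former touched H3K27me3 regions of 300 bp at 6 h and 347 bp at 12 h.

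At the Hox clusters, the arrays of homeobox genes that pattern the body axis, the few H3K27me3 regions listed at 0 h were all absent from the 72 h list. Replicate 1 listed 6 regions in the windows of the 4 clusters and replicate 2 listed 15, of which 3 in each overlapped the other replicate, and the 72 h list had 0. By cluster, HoxA had 3 and 4 regions, HoxB 1 and 2, HoxC 0 and 1, and HoxD 2 and 8. Most of them were weak: 4 of the 6 and 9 of the 15 were in the lowest quintile of −log10 q of their list, where 80.7% (replicate 1) and 88.0% (replicate 2) of all regions were lost. No Hox region overlapped H3K4me3 at 0 h and 1 overlapped Ring1b, although the windows held 51 and 31 Ring1b regions at 0 h (4 at 72 h) and 30 H3K4me3 regions at 0 h (84 at 72 h). The median fold enrichment of the Hox regions was 2.60 in replicate 1 and 2.57 in replicate 2, against 4.79 and 5.87 over all regions of these lists. The windows span 106 to 187 kb, and the local background of the peak caller was read as 100 kb. What this setting did to the counts was not tested. The counts of 6 and 15 are read against the shares lost in the lowest quintile, and they do not measure how much H3K27me3 the clusters carried.

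Chromosome X had a lower kept share than each of the 19 autosomes. Of its regions, 8 of 66 in replicate 1 (12.1%, 6.27 to 22.1%) and 8 of 120 in replicate 2 (6.67%, 3.42 to 12.6%) were kept, against 34.8% and 28.8% on the autosomes. The kept share of single autosomes went from 30.8% to 44.4% in replicate 1 and from 25.3% to 37.3% in replicate 2, with chromosome 15 highest in both. Of the 72 h regions on X, 27 of 39 were new (69.2%), against 28.2% on the autosomes. The X regions were also poorly shared by the replicates, with 30.3% and 15.0% found in the other one. They were short and weak, and autosomal regions with the same mix of length quintiles were kept in 25.2% and 17.5%.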

How the data were processed

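ChIP-seq libraries of Wnt3KO EpiSCs were analysed from the authors' deposited lists of regions, in the narrowPeak layout (build mm9). MACS2 2.1.0, SAMtools 0.1.19 and Bowtie 1.1.0 are credited to the submitters' processing notes, which give no roles. The choice of control library for the peak caller was not given in the sources used here. The names of the regions hold settings that read as 300 bp read extension and a 100 kb window for the local background. The deposited fold enrichment is the ratio, at the summit, that the authors' peak caller gave, as are the deposited −log10 values of p and q, and all were used only within a list. The lists hold no read counts, so no limit can be set for an absent region.

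Regions of the 3 H3K27me3 lists that shared at least 1 bp with a region of either input library were removed. The other lists were used as deposited: 2 Ring1b libraries at 0 h and 1 at 72 h, and 1 library each of H3K4me3 and H3K27ac at 0 h and 72 h, all of Wnt3KO EpiSCs, 1 H3K27me3 library each after 5 h of Wnt3a (125 ng/mL), 6 h and 12 h of CHIR99021, and 1 ATAC-seq library each of wild-type EpiSCs at 0 h and 48 h. The labels give IWP2 for the H3K27me3, Ring1b and input libraries of 0 h, and no stimulation for those of H3K4me3 and H3K27ac. The names inside the files place replicate 2, the 72 h H3K27me3 library, H3K4me3, H3K27ac and the second Ring1b replicate with 72 h Ring1b in the same processing folder.

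Length and −log10 q quintiles were formed within each list. Differences within quintiles are means over the 5 quintiles. Computations used Python 3.11.15, numpy 2.4.6, pandas 2.3.3 and scipy 1.17.1, and were tested on simulated lists. Groups and replicates were taken from the labels. The regions named are the 3 kept, 3 lost and 3 new regions of highest −log10 q and the 2 longest of each class, more than 100 kb from input regions, with kept and lost ones taken from replicate 2 and listed in replicate 1 too, and those inside the Hox clusters, whose mm9 windows were set from memory of the genome and checked by Ring1b at 0 h. The members, lists and settings were chosen with earlier results of these data known. No mm9 genome or annotation was used, so genes and sequences of the regions are not reported here.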

Additional observations from a re-analysis of the deposited data

How the results depend on the processing

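In the order kept share, new share, difference of the end quintiles of length and of −log10 q, Ring1b difference and H3K4me3 difference of kept shares, and differences of new and other 72 h regions, the values that moved beyond the replicate SD or the counting interval were as follows. With the summit inside the other list's region: kept 21.1%, new 34.3%, length 28.0 points, −log10 q 31.4, Ring1b 1.13, H3K4me3 4.54, H3K4me3 at 72 h on new regions −0.976, Ring1b at 0 h on new regions −21.9, H3K27ac −1.48 (new) and 0.496 (lost). With 50% overlap: new 32.8%, −log10 q 48.2 points, H3K4me3 12.5, on new regions H3K4me3 −2.17, Ring1b at 0 h −22.7 and H3K27ac −1.34, and H3K27ac on lost regions 0.745. Within 1 kb: kept 45.9%, new 20.9%, length 40.7 points, −log10 q 42.1, H3K27ac on lost regions 1.23. With a −log10 q of at least 5: kept 26.2%, length 43.2 points, −log10 q 41.4, Ring1b 6.85, H3K27ac on lost regions 0.793. With equal lists: kept 41.6%, new 40.4%, −log10 q 46.0 points, Ring1b 5.47, Ring1b at 0 h on new regions −29.3, H3K27ac on lost regions 1.51. With input regions kept in: −log10 q 50.6 points, Ring1b 14.5, H3K4me3 21.9, Ring1b on new regions −29.1 (0 h) and −6.99 (72 h). With regions within 1 kb merged: kept 39.0%, length 64.6 points, −log10 q 65.1, Ring1b 23.1, H3K4me3 37.3, H3K4me3 on new regions −12.7, H3K27ac on lost regions 1.52. With 3 classes in place of 5, the end classes differed by 39.8 points for length and 37.1 for −log10 q. Leaving out a 0 h replicate gave new shares of 31.8% to 46.7% and, on new regions, H3K4me3 differences at 72 h of −6.88 to −0.254 points and Ring1b differences at 0 h of −27.9 to −25.7 points.

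Alternatives and results chosen after seeing the data were the regions of both 0 h replicates, the means within quintiles, the omission of chromosome X, Ring1b at 0 h on new regions and H3K27ac. Over regions of both replicates, kept was 40.4%, −log10 q 48.8 points, Ring1b 4.63 and H3K4me3 18.7. Within quintiles of −log10 q and of length, the Ring1b difference reversed, to −2.69 and −3.07 points, and that of H3K4me3 was 12.4 and 10.3. All other differences kept their sign in the alternatives run, and the cause of each shift was not tested. No paired analysis was possible because there is 1 library at 72 h and no test was run. Depth is unknown and limits every lost or new region.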
